A study of Mus musculus with 9 samples.

Results

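The 10 genes described here encode the cytosolic and mitochondrial chaperones and co-chaperones that handle misfolded proteins, most of them raised by heat, together with their transcription factor. They are Hsf1, Hspa1a, Hspa1b, Hspa8, Dnajb1, Hsph1, Bag3, Hsp90aa1, Hspd1 and Hspe1, chosen by name and not by their values, and they are 10 of the 20731 gene symbols counted. The libraries came from the brains of male C57BL/6J mice aged 8 to 10 weeks, all of which had cerebral venous sinus thrombosis (CVST), set off by ferric chloride on the superior sagittal sinus, and were sampled on day 2. The 3 groups of 3 libraries each were CVST alone, CVST with ligation of the deep cervical lymph nodes (CVST+Ligation), and the same thrombosis and ligation with an intraperitoneal dose of 100 mg/kg 4-phenylbutyric acid (4-PBA), a chemical chaperone given as an inhibitor of endoplasmic reticulum stress. The methods place the injection 30 minutes before modelling, while the description of the data set has it follow ligation. Control mice received solvent, and whether ligated mice had solvent is not stated. No sham library was analysed here, so every comparison is within thrombosed brain. The labels give the tissue only as brain, the data set's description as cortex, and in bulk tissue fewer cells of a type and less RNA per cell cannot be told apart.

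The heat shock response works through HSF1, which chaperones hold inactive at rest. When misfolded proteins draw the chaperones away, HSF1 forms trimers, binds heat shock elements made of inverted GAA repeats, and switches on chaperone genes. HSP70 proteins then refold clients with HSP40 partners and nucleotide exchange factors, HSP90 matures signalling proteins, and HSP60 with its lid HSP10 folds proteins in the mitochondrial matrix. In brain, the constitutive HSP70 gene Hspa8 is abundant, whereas the inducible pair Hspa1a and Hspa1b is kept low until stress.

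Inverted GAA repeats, the units of heat shock elements, were searched near the start sites. RefSeq windows on GRCm38.p6, covering 250 bases before to 50 bases after each start site, matched 7 of the 10 genes. Hspa8, Hsp90aa1 and Hsf1 were not matched in the table of windows used and were not examined. A pair of inverted units, spelled GAANNTTC or TTCNNGAA, was found in 6 of these 7 genes, and in 17.0% of the 27025 reference genes counted. The reference count left out a chromosome that holds none of the 10 genes. The windows of Hspa1a and Hspa1b were 98.67% identical and are close to a single observation. A run of 3 units, GAANNTTC followed by NNGAA or TTCNNGAA followed by NNTTC and so holding the shorter form within it, was found in 3 genes, Hsph1, Hspe1 and Hspd1, and in 0.662% of the same reference genes. Neither form was in the Dnajb1 windows. Each form of a pair reads the same on both strands, and the forms of the longer run are each other's reverse complement, so both strands were covered. The stretches that carry them are shown 5′ to 3′ on the strand of each gene with the GAA and TTC units in capitals, because repeats of these units are what HSF1 is known to bind.
Hspa1a, chr17:34972247-34972266, minus strand: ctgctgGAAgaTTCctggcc
Hspa1b, chr17:34959329-34959348, minus strand: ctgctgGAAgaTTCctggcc
Hspe1, chr1:55088053-55088082, plus strand: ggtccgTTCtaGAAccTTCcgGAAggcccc
Hspd1, chr1:55088053-55088082, minus strand: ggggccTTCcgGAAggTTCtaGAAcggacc
Hsph1, chr5:149636282-149636306, minus strand: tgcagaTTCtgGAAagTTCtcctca
Hsph1, chr5:149636356-149636375, minus strand: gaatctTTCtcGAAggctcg
Bag3, chr7:128523619-128523632, plus strand: ggaccaGAAgtTTC
In Hspa1a and Hspa1b the motif began 104 bases before the start site, and the printed stretches were identical. Hspe1 and Hspd1 are transcribed in opposite directions, and the run of 4 units shown for both is the same stretch of DNA. It began 89 bases before the Hspe1 start. For Hspd1 the table gives 2 start sites: the run began 144 bases before the inner one, and lay inside the gene as counted from the outer one, whose window does not reach it. The longer Hsph1 run began 15 or 36 bases after the start and the Hsph1 pair 33 or 54 bases before it, counted from either of the gene's start sites, and the Bag3 pair began 42 bases after its start. These matches describe letters in a window and not binding.

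The gene pairs on chromosomes 17 and 1 limit how their reads could be assigned. On GRCm38 (GENCODE annotation), Hspa1a at chr17:34969190-34972156 and Hspa1b at chr17:34956436-34959238 lie 9951 bases apart on the minus strand. Their coding sequences were 99.43% identical, with 11 differing positions in 1926 aligned, and 54.6% of all 150-base stretches of the Hspa1a coding sequence occurred in Hspa1b, so the split of reads between them is uncertain. Hspa1a also overlaps Gm20481 on the opposite strand, which was not a row of the count table. Hspd1 at chr1:55077835-55088243 and Hspe1 at chr1:55088132-55091307 overlap by 112 bases on opposite strands. The other genes lie at chr15:76477422-76501913 (Hsf1), chr9:40800984-40810087 (Hspa8, with 3 small nucleolar RNA genes inside it), chr8:83608193-83612653 (Dnajb1), chr5:149614287-149636376 (Hsph1), chr7:128523616-128546981 (Bag3) and chr12:110690605-110702728 (Hsp90aa1).

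Libraries held 18100739 to 25091498 counts, and the lowest count of any of the 10 genes in any library was 128. All 10 passed the filter on low counts with 14746 genes in all. General neuronal markers were present throughout, with 7 genes summing to 3355 to 4960 CPM, the read count scaled to a common library size. Markers of brain regions moved with the groups. At an unadjusted edgeR p below 0.05, 8 of 8 midbrain dopamine genes were higher in CVST+Ligation than in CVST (summed CPM 300 to 520.4 against 53.97 to 101.4). Likewise 8 of 8 striatal genes were lower (195.1 to 514.8 against 1053 to 1772). After adjustment 3 of the midbrain dopamine and 0 of the striatal genes held. Summed cortical excitatory markers were 1942 to 2427 CPM in CVST, 556.5 to 1780 in CVST+Ligation and 667.6 to 979.6 in 4-PBA. Summed hypothalamic markers were at most 20.66 CPM outside the 4-PBA group and 277 to 472.3 in it. CVST+Ligation replicate 2 stood apart with 1119 CPM of cerebellar markers (at most 253.5 elsewhere), and 4-PBA replicate 1 with 3154 CPM of choroid plexus markers (at most 987.5 elsewhere). The part of these regional differences in the heat shock values was not tested.

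None of the 10 heat shock genes reached an unadjusted edgeR p below 0.05, the threshold used here, in any of the 3 comparisons. Against CVST, CVST+Ligation had 0 of 10 genes past the threshold, where 9.64% of all genes tested passed it. Between 4-PBA and CVST+Ligation the count was 0 of 10, beside 3.23% of all genes. Between 4-PBA and CVST it was 0 of 10, beside 15.4%. The lowest Benjamini-Hochberg adjusted p of the edgeR fit for a heat shock gene was 0.565, 0.9998 and 0.385 in these comparisons, and in the comparisons with CVST it belonged to Hspd1. A p that misses the threshold does not show that levels were equal, so each gene is given below with its interval.

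The median size of the differences of the 10 genes was below that over all genes in each comparison, without matching for expression level. By level, Hspa8, Hsp90aa1, Hspe1, Hsph1 and Hspd1 lay at or above the 95.4 percentile of genes, and the rest between 35.01 and 88.69. The part of level in these medians was not tested. The median absolute log2 fold change of the 10 genes was 0.15 between CVST+Ligation and CVST, against 0.22 over all genes tested. It was 0.08 between 4-PBA and CVST+Ligation, against 0.15, and 0.14 between 4-PBA and CVST, against 0.24. The signed medians were 0.04, 0.02 and 0.10, with 6, 8 and 6 of the 10 genes above 0. Over all genes tested 1422, 476 and 2271 genes passed the threshold, and 3, 0 and 18 passed after adjustment in edgeR. The last of these adjusted counts was 2 without CVST replicate 1 or without 4-PBA replicate 1 and 541 without CVST+Ligation replicate 2.

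**Figure D1:**
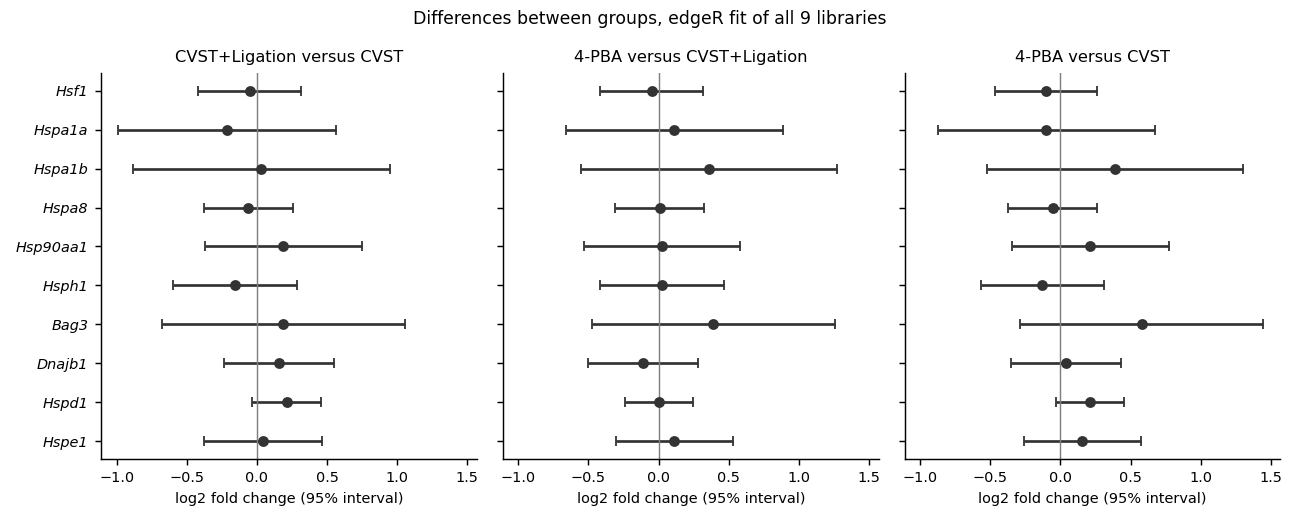
Log2 fold change (x axis) of each of the 10 heat shock genes (y axis) in the 3 comparisons, with points for the edgeR estimate and bars for its 95% interval. Every interval covers 0, the bars are narrowest for Hspd1 and widest for Hspa1b, and the Hspd1 interval reaches down to -0.03 in both comparisons with CVST.

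Hsf1, which encodes the factor that drives the response, gave overlapping values in the 3 groups. Its normalised CPM was 33.6, 33.6 and 46.3 in CVST, 32.9, 40.5 and 36.1 in CVST+Ligation, and 36.1, 35.6 and 34.1 in 4-PBA. CVST replicate 3 was the highest library, and the other CVST libraries lay below all 4-PBA libraries and within the range of CVST+Ligation. The CVST+Ligation to CVST ratio was 0.965-fold (95% interval 0.749 to 1.24), and the 4-PBA to CVST+Ligation ratio was 0.966-fold (0.750 to 1.24). HSF1 is controlled mainly through its protein, so its transcript level is not a readout of its activity.

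Hspa1a and Hspa1b, the inducible HSP70 genes and the usual marker of an active heat shock response, differed more between mice of a group than between groups. Hspa1a was at 12.45, 9.71 and 21.3 CPM in CVST, 13.8, 8.30 and 15.3 in CVST+Ligation, and 16.2, 9.55 and 14.75 in 4-PBA. Hspa1b was at 12.96, 9.36 and 18.6 CPM in CVST, 16.5, 6.60 and 18.6 in CVST+Ligation, and 21.0, 11.5 and 21.0 in 4-PBA. In each group replicate 2 was the lowest of the 3 for both genes, and the groups overlapped. Leaving out CVST replicate 3, the highest Hspa1a library, turned the Hspa1a difference between CVST+Ligation and CVST from -0.21 to 0.15 on the log2 scale, and that between 4-PBA and CVST from -0.10 to 0.27, with neither past the threshold. The Hspa1b difference between 4-PBA and CVST+Ligation, 0.36 on the log2 scale, was 0.04 without CVST+Ligation replicate 2 and 0.62 without CVST+Ligation replicate 3. That between CVST+Ligation and CVST, 0.03, ran from -0.24 without CVST+Ligation replicate 3 to 0.37 without CVST+Ligation replicate 2, and none of these passed the threshold.

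Group means for Hspa1a were 14.5 ± 6.07 CPM (SD, n = 3) in CVST, 12.5 ± 3.69 in CVST+Ligation and 13.5 ± 3.50 in 4-PBA. For Hspa1b they were 13.6 ± 4.66, 13.9 ± 6.42 and 17.9 ± 5.49 CPM. The fitted ratio of CVST+Ligation to CVST was 0.862-fold for Hspa1a (95% interval 0.504 to 1.475) and 1.02-fold for Hspa1b (0.542 to 1.93). The ratio of 4-PBA to CVST+Ligation was 1.08-fold for Hspa1a (0.632 to 1.85) and 1.28-fold for Hspa1b (0.680 to 2.42). The intervals are wide and take in both lower and higher levels. With the reads of both genes added as 1 feature, the log2 fold changes were -0.09, 0.25 and 0.16 in the 3 comparisons (SE 0.37 in each) and none passed the threshold.

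Hspa8, the constitutive cytosolic HSP70 that also uncoats clathrin vesicles at synapses, was measured with much less spread. It stood at 4964, 4199 and 5735 CPM in CVST, 4345, 4721 and 5213 in CVST+Ligation, and 4577, 4685 and 5086 in 4-PBA. The highest and the lowest library were both CVST, and all other libraries fell between them. The CVST+Ligation to CVST ratio was 0.9585-fold, with a 95% interval from 0.769 to 1.195, and the 4-PBA to CVST+Ligation ratio was 1.005-fold (0.806 to 1.25).

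The co-chaperones of HSP70 gave overlapping groups as well. Dnajb1, an HSP40 that delivers clients to HSP70 and is itself strongly induced by heat, was at 80.8, 88.3 and 109.9 CPM in CVST, 103.2, 94.1 and 113.1 in CVST+Ligation, and 115.4, 93.8 and 77.7 in 4-PBA. Its highest and lowest libraries both belonged to 4-PBA. Hsph1, the HSP110 exchange factor that works with HSP70 in dissolving aggregates, was at 984.8, 666.7 and 818.2 CPM in CVST, 778.4, 550.4 and 889.9 in CVST+Ligation, and 750.3, 701.3 and 807.7 in 4-PBA. CVST held the highest Hsph1 value and CVST+Ligation the lowest, and the 4-PBA libraries fell within the range of each other group. The CVST+Ligation to CVST ratios were 1.11-fold for Dnajb1 (95% interval 0.848 to 1.46) and 0.898-fold for Hsph1 (0.662 to 1.22), and those of 4-PBA to CVST+Ligation 0.924-fold (0.704 to 1.21) and 1.02-fold (0.750 to 1.38).

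Bag3, the exchange factor that routes damaged clients to autophagy, had a single high library. It was at 31.4, 18.5 and 20.4 CPM in CVST, 19.8, 36.1 and 24.4 in CVST+Ligation, and 18.75, 55.1 and 31.2 in 4-PBA. The 55.1 CPM of 4-PBA replicate 2 came from 1310 counts, and the other 4-PBA libraries lay within the range of the CVST libraries. Group means were 23.4 ± 6.96 (SD, n = 3), 26.8 ± 8.39 and 35.0 ± 18.5 CPM. The 4-PBA to CVST ratio of 1.49-fold had a 95% interval from 0.819 to 2.73, and the ratio to CVST+Ligation was 1.31-fold (0.719 to 2.39). Single libraries decided these Bag3 values. Without 4-PBA replicate 2 the log2 difference from CVST+Ligation was -0.10 in place of 0.39 and that from CVST 0.09 in place of 0.58, and without 4-PBA replicate 1 the difference from CVST was 0.89 with an unadjusted edgeR p of 0.0306. Without CVST+Ligation replicate 2 the difference between 4-PBA and CVST+Ligation was 0.68 and that between CVST+Ligation and CVST -0.09 in place of 0.19.

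**Figure D2:**
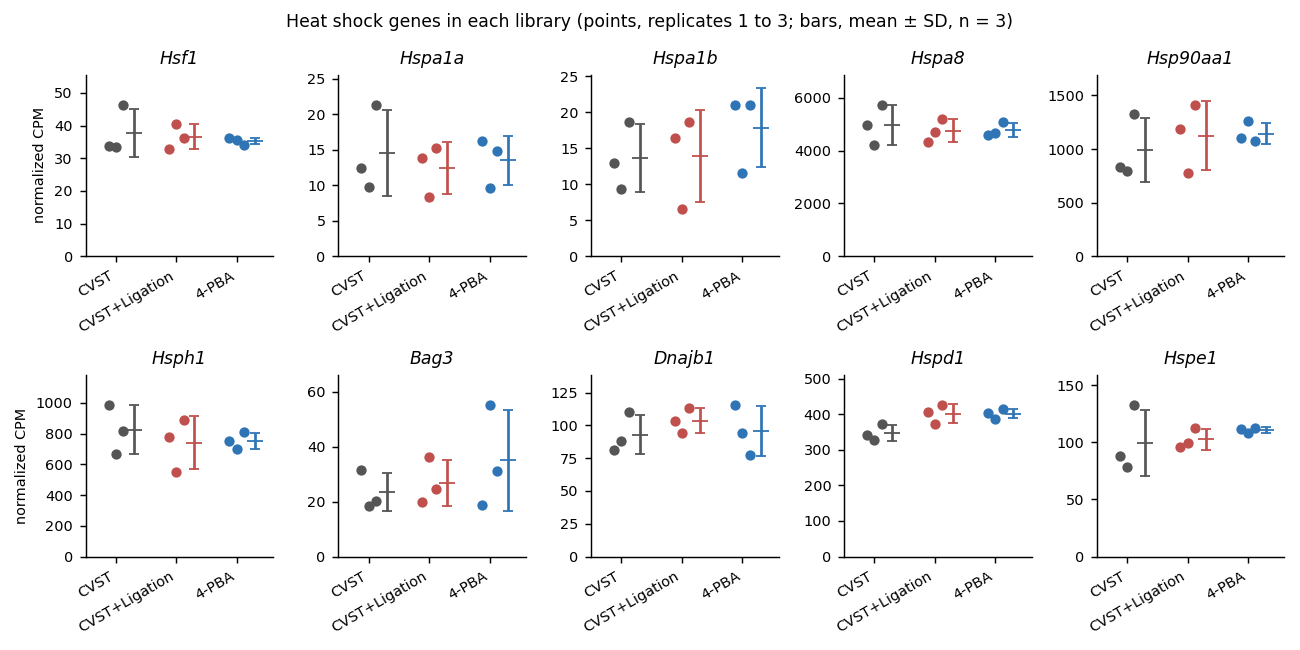
Normalised CPM (y axes, each starting at 0) of the 10 heat shock genes in every library, by group (x axes), with points for replicates 1 to 3 and bars for the group mean ± SD (n = 3). Points of the 3 groups overlap in every panel but that of Hspd1, where the CVST libraries reach 371.8 CPM and the lowest of the other libraries is at 372.1.

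Hsp90aa1, the stress-inducible cytosolic HSP90, was at 831.7, 798.6 and 1331 CPM in CVST, 1188, 775.7 and 1412 in CVST+Ligation, and 1104, 1257 and 1071 in 4-PBA. The groups without 4-PBA ranged widely, and the 4-PBA libraries lay within the range of each. The SD was 98.8 CPM in 4-PBA, 298.5 in CVST and 323 in CVST+Ligation. CVST+Ligation stood to CVST at 1.14-fold (95% interval 0.774 to 1.68), and 4-PBA to CVST+Ligation at 1.02-fold (0.690 to 1.497). On the log2 scale the difference between CVST+Ligation and CVST, 0.19, was -0.01 without CVST+Ligation replicate 3 and 0.44 without CVST replicate 3, and that between 4-PBA and CVST, 0.21, was 0.095 without CVST replicate 2 and 0.47 without CVST replicate 3, none past the threshold.

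The mitochondrial pair gave the only heat shock gene whose groups did not overlap. Hspd1, which encodes the barrel-forming HSP60, was at 342.3, 327.4 and 371.8 CPM in CVST, 407.6, 372.1 and 425.9 in CVST+Ligation, and 404.7, 387.4 and 414.7 in 4-PBA. All 6 ligated libraries were above all 3 CVST libraries, with almost no gap between CVST replicate 3 at 371.8 and CVST+Ligation replicate 2 at 372.1. Non-overlapping groups were found for 1 of 10 heat shock genes between CVST+Ligation and CVST, beside 13.8% of all genes tested, and for 1 of 10 between 4-PBA and CVST, beside 23.7%. For 4-PBA and CVST+Ligation they were found for 0 of 10, beside 7.73%. A share of 1 in 10 is near or below these backgrounds.

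The Hspd1 difference was 1.16-fold between CVST+Ligation and CVST (95% interval 0.978 to 1.37), with a log2 fold change of 0.21 ± 0.11 (SE) and an unadjusted p of 0.0810 in edgeR. Between 4-PBA and CVST, which used the same CVST libraries, it was 1.16-fold (0.979 to 1.37) with an edgeR p of 0.0796. Between 4-PBA and CVST+Ligation the log2 fold change was 0.0012 (95% interval -0.24 to 0.24). The call for Hspd1 depended on the scaling, the tool and the libraries. It crossed the threshold in both comparisons with CVST when libraries were scaled by total counts alone, at log2 fold changes of 0.25 and 0.29 with unadjusted edgeR p-values of 0.0328 and 0.0184. It also did so when FPKM values, which carry the same scaling by library totals, were fitted in limma. With total counts alone the median log2 fold change over all genes also moved up in these comparisons. It was 0.04 and 0.06, against 0.002 and -0.008 in the main fit. DESeq2 took only the comparison of 4-PBA with CVST past the threshold for Hspd1, with an unadjusted p of 0.0469. Without CVST+Ligation replicate 2, the library with high cerebellar markers, the edgeR log2 difference between CVST+Ligation and CVST was 0.26 with an unadjusted p of 0.0423, and without CVST replicate 3 that between 4-PBA and CVST was 0.25 with an unadjusted p of 0.04997.

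Hspe1 encodes HSP10, the lid of the HSP60 barrel, and shares its promoter region with Hspd1. It was at 87.9, 78.2 and 132.6 CPM in CVST, 95.96, 99.15 and 113 in CVST+Ligation, and 111.7, 108.1 and 112.9 in 4-PBA. CVST replicate 3 was the highest library of all and the other CVST libraries were the lowest. The CVST+Ligation to CVST ratio was 1.03-fold (95% interval 0.772 to 1.38) and that of 4-PBA to CVST was 1.11-fold (0.834 to 1.49). Without CVST replicate 3 the log2 differences from CVST were 0.285 for CVST+Ligation and 0.40 for 4-PBA, in place of 0.04 and 0.16, with unadjusted edgeR p-values of 0.0426 and 0.00973. CVST replicate 3 was also the highest library for Hspa1a, Hspa8 and Hsf1.

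The genes differed in their spread between mice. The biological coefficient of variation fitted by edgeR was 36.1% for Hspa1b, 34.1% for Bag3 and 31.3% for Hspa1a, above the common value of 28.7%. It was 22.9% for Hsp90aa1, 19.0% for Hsph1, 18.4% for Hspe1, 17.5% for Dnajb1, 17.2% for Hsf1, 14.9% for Hspa8 and 12.95% for Hspd1. The inducible HSP70 genes and Bag3 were thus the most variable, and the constitutive Hspa8 and the mitochondrial Hspd1 the least. Over the 9 libraries the highest Hspa1b value was 3.19 times the lowest, and that ratio was 1.30 for Hspd1.

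Levels per length spanned the range from one of the most abundant brain transcripts to low expression. In FPKM, a level scaled for gene length and library size, Hspa8 averaged 2492 ± 213 (SD over 9 libraries), placing it at the 99.92 percentile of genes. Hsp90aa1 followed at 492.6 ± 102, Hspe1 at 340.9 ± 50.5, Hsph1 at 299.2 ± 44.9 and Hspd1 at 223.4 ± 22.2 FPKM. Dnajb1 averaged 95.3 ± 12.8 FPKM, Hsf1 21.5 ± 2.30 and Bag3 16.5 ± 7.05. The inducible HSP70 genes closed the order, Hspa1b at 7.86 ± 2.76 and Hspa1a at 6.99 ± 1.99 FPKM, the latter at the 35.01 percentile. Ranges over libraries did not overlap between Hspa8 and Hsp90aa1, between Hspd1 and Dnajb1, or between Dnajb1 and Hsf1, and did overlap between all other neighbours in the order. The lengths behind the FPKM were the authors', and 74.8% of them over all genes were multiples of 3, as coding lengths are. For Hspe1 the length was 306 bases against a transcript of 774, for Hspa1a 1923 against 2967 and for Hspa1b 1926 against 2803, so the order of levels, and ratios between genes, rest on these lengths.

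**Figure D3:**
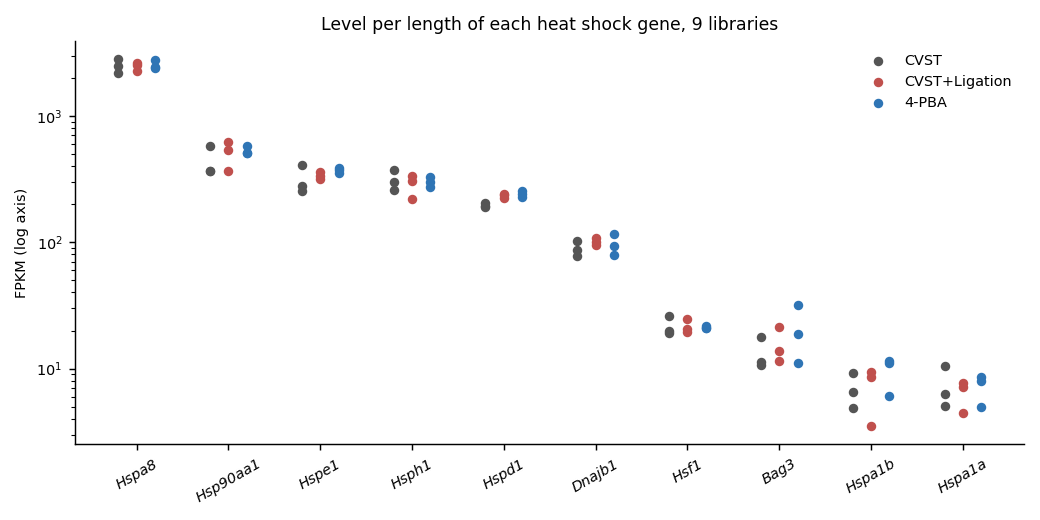
FPKM on a log axis (y) of each heat shock gene (x axis, ordered by mean level), with 1 point per library coloured by group. Hspa8 lies between 2164 and 2813 FPKM in all 9 libraries and Hspa1a between 4.445 and 10.5, and the groups overlap in all genes but Hspd1, where the CVST points are the lowest.

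Constitutive HSP70 transcript far exceeded the inducible form in every mouse. The ratio of Hspa8 to the sum of Hspa1a and Hspa1b in FPKM was 194, 218.7 and 142.6 in CVST, 142.4, 314.8 and 152.6 in CVST+Ligation, and 122.1, 220.7 and 141.2 in 4-PBA. Replicate 2 had the highest ratio in each group, and the groups overlapped.

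Most pairs of heat shock genes correlated positively from mouse to mouse. Of the 45 pairs among them, 35 had a positive Pearson r of log2 CPM over the 9 libraries, with a median r of 0.42 and a range from -0.54 to 0.89. Over pairs of all genes tested, 49.86% were positive and the median r was 0. The 45 pairs share the same 10 genes and 9 libraries, so they are not independent. CVST+Ligation replicate 2, the library with high cerebellar markers, was the lowest for Hspa1a, Hspa1b, Hsph1 and Hsp90aa1. CVST replicate 2 was the lowest for 4 genes and CVST replicate 3 the highest for 4. The part of these libraries in the correlations was not tested. An exact permutation test over all 362880 orders of the libraries gave p below 0.05 for 7 pairs by Pearson, of which 1 held after Benjamini-Hochberg adjustment over the 45 pairs, and 0 by Spearman after adjustment. That pair was Hspa1a and Hspa1b, with Pearson r = 0.89 (exact permutation p = 0.00101, adjusted 0.0456) and Spearman rho = 0.83 (exact permutation p = 0.00827, adjusted 0.331). Without the 2 libraries farthest from the Hspa1a median r was 0.95, and within groups it was 0.95. These genes can share reads, as their sequences show, and the part of shared reads in this likeness was not tested.

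Among the genes with distinct sequence, Hspa8 and Hspe1 had r = 0.76 (exact permutation p = 0.0173, adjusted 0.225), and Spearman rho = 0.77 (exact permutation p = 0.0214, adjusted 0.331). The r of this pair was 0.28 without the 2 libraries farthest from the Hspa8 median, CVST replicates 2 and 3, so the pooled relation rested on those libraries. Within groups r was 0.89, with both libraries kept, so it is not independent of them. Hsp90aa1 and Hspe1 had r = 0.76 (exact permutation p = 0.01745, adjusted 0.225) and rho = 0.70 (exact permutation p = 0.04325, adjusted 0.331). For them r was 0.71 without the 2 libraries farthest from the Hsp90aa1 median and 0.73 within groups. Within groups Hspd1 had r = 0.95 to Hspa1a and 0.95 to Hspa1b, where the pooled values were 0.41 and 0.63, which is a description with no test. The 3 lowest pair values were those of Bag3 with Hspa1a (r = -0.54, exact permutation p = 0.1305), Dnajb1 (r = -0.445, p = 0.228) and Hspa1b (r = -0.39, p = 0.301), none past the threshold, and Bag3 had r = 0.11 to Hspa8, 0.06 to Hspe1 and 0.04 to Hspd1. Since no heat shock gene passed the threshold, likeness to other genes is given for Hspa1b alone, as the rule for named genes set. The nearest were Bloc1s4 (r = 0.957), Zfp804a (r = 0.934) and Rasl11a (r = 0.932) over 9 libraries, as a description taken from 14746 genes.

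**Figure D4:**
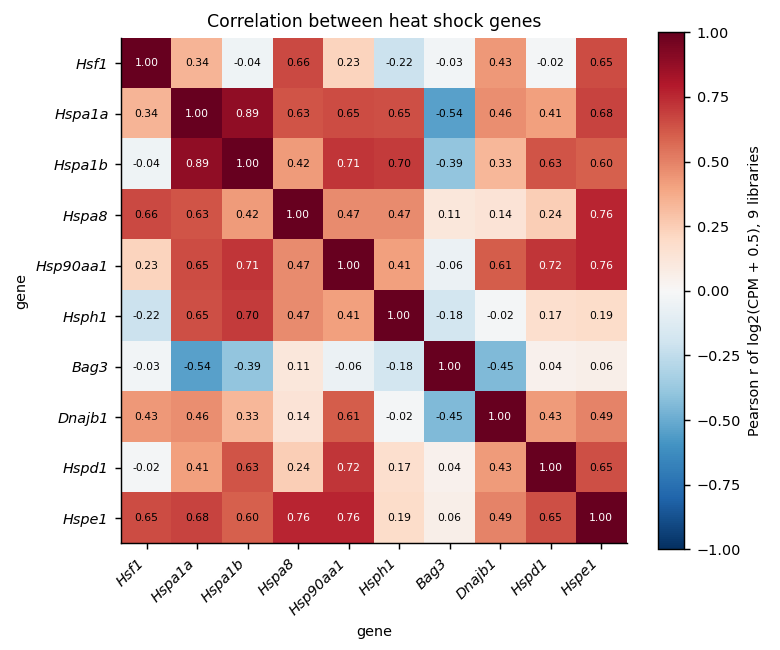
Pearson r of log2 CPM over the 9 libraries for each pair of heat shock genes, both axes listing the 10 genes and colour giving r. The highest pair off the diagonal is Hspa1a with Hspa1b at 0.886, and the Bag3 row holds the negative end at -0.543.

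Genes of the wider chaperone network passed the threshold at shares near those of all genes. Of 69 further chaperone and co-chaperone genes 67 were tested, and 5 of them passed it between CVST+Ligation and CVST, 3 higher and 2 lower, which is 7.46% beside the 9.64% of all genes. Between 4-PBA and CVST+Ligation 0 passed, beside 3.23% of all genes. Between 4-PBA and CVST 8 passed, 5 higher and 3 lower, 11.9% beside 15.4%. After adjustment 0 passed in edgeR in any comparison. None of the 8 TRiC chaperonin subunits, the 11 mitochondrial chaperones and proteases or the 4 tested heat shock factors and HSF1 regulators passed in any comparison. The median log2 fold changes of the mitochondrial list were 0.03, -0.06 and -0.06, where Hspd1 itself had 0.21, 0.00 and 0.21.

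The network genes that passed were spread over several families. Bag5, a BAG-domain regulator of HSP70, was lower in CVST+Ligation than in CVST. It was at 114.1, 103.5 and 116.9 CPM in CVST, 79.9, 83.3 and 82.0 in CVST+Ligation, and 88.9, 88.9 and 76.9 in 4-PBA. The CVST libraries lay above all ligated ones, with a log2 fold change of -0.45 ± 0.11 (SE) and an edgeR adjusted p of 0.294 for CVST+Ligation, and -0.39 ± 0.11 and 0.145 for 4-PBA, both against CVST. Hspa4l, an HSP110 protein, was higher in CVST+Ligation than in CVST, by 0.50 ± 0.16 (edgeR adjusted p = 0.380). Its CPM was 103.8, 101.7 and 77.85 in CVST, 127.7, 150.3 and 122.9 in CVST+Ligation, and 144.9, 135.1 and 112.3 in 4-PBA. Thus the HSP110 gene Hspa4l was higher in both ligated groups, where Hsph1 of the same family gave values that overlapped. Cdc37l1, an HSP90 co-chaperone, was higher by 0.43 ± 0.15 (edgeR adjusted p = 0.405), at 60.6, 62.75 and 55.2 CPM in CVST, 74.8, 95.55 and 71.0 in CVST+Ligation, and 87.9, 73.3 and 73.85 in 4-PBA.

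Against CVST, 4-PBA also differed in an HSP70 gene next to the inducible pair and in a small heat shock protein. Hspa1l, an HSP70 best known from testis, was at 19.6, 19.9 and 18.01 CPM in CVST, 14.9, 15.6 and 15.9 in CVST+Ligation, and 12.6, 11.45 and 13.8 in 4-PBA. The groups fell in separate steps, and 4-PBA was lower than CVST by a log2 fold change of -0.61 ± 0.15 (edgeR adjusted p = 0.108). Neither single step passed the threshold, with unadjusted edgeR p-values of 0.0639 for CVST+Ligation against CVST and 0.0756 for 4-PBA against CVST+Ligation. Cryab, the small heat shock protein alphaB-crystallin of oligodendrocytes and astrocytes, was at 153.5, 157.4 and 198.6 CPM in CVST, 138.2, 259.5 and 191.7 in CVST+Ligation, and 319.9, 287.7 and 226.1 in 4-PBA. All 4-PBA libraries lay above the CVST ones, by 0.71 ± 0.23 (edgeR adjusted p = 0.1895). Oligodendrocyte markers moved the same way, with 5 of 7 higher in 4-PBA than in CVST and summed levels of 2606 to 3452 CPM in CVST and 4653 to 7439 in 4-PBA. Of the astrocyte markers 1 of 7 was higher, and their summed levels overlapped, at 1879 to 3013 CPM in CVST and 2236 to 3488 in 4-PBA. The part of either cell type in the Cryab value was not tested.

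**Figure D5:**
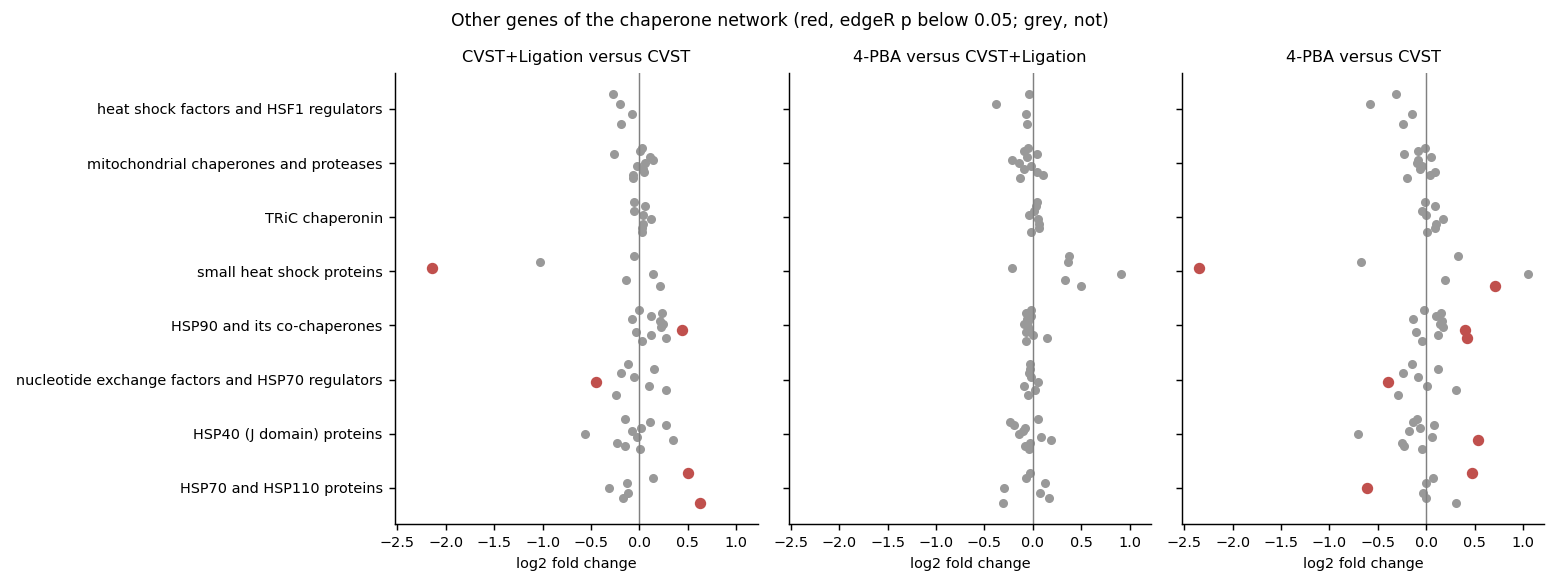
Log2 fold change (x axes) of the 67 tested genes of the wider chaperone network in the 3 comparisons, by list (y axes), with red points for edgeR p below 0.05 and grey for the rest. Red points number 5, 0 and 8, and the TRiC and mitochondrial lists hold none.

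A pair of other stress lists gave a frame for these values. Of 14 chaperone genes of the endoplasmic reticulum, the compartment 4-PBA is given for, 0 passed between CVST+Ligation and CVST, 0 between 4-PBA and CVST+Ligation, and 1 was higher in 4-PBA than in CVST, with median log2 fold changes of -0.03, 0.10 and 0.10. For a list of 14 genes these counts are near the background of 9.64%, 3.23% and 15.4% of all genes, and they are not read as a result about the list. Of 20 immediate early genes, which report recent neuronal activity and are also quick to respond to stress, 11 were lower and 1 higher in CVST+Ligation than in CVST, with a median log2 fold change of -1.37. In 4-PBA 1 was lower than in CVST+Ligation, and against CVST 9 were lower and 0 higher, with a median of -1.38. After adjustment in edgeR 0 immediate early genes passed in any comparison. Neuronal markers were split by region in the comparison of CVST+Ligation with CVST. Of the cortical excitatory genes 4 of 8 were lower (median log2 fold change -0.66) and of the striatal genes 8 of 8 (median -2.27), whereas 8 of 8 midbrain dopamine (median 4.81), 6 of 8 thalamic (median 1.53) and 5 of 6 tested cerebellar genes (median 3.17) were higher, the last list summing to 1119 CPM in CVST+Ligation replicate 2 and to 211.3 and 250.2 in the other libraries of that group against 137.9 to 218.9 in CVST, and 2 of 7 general neuronal markers were lower (median -0.09). Against CVST, 4-PBA had 6 of 8 cortical excitatory genes lower (median -1.58), and 8 of 8 midbrain dopamine (median 5.03), 6 of 6 tested hypothalamic (median 7.92) and 5 of 7 oligodendrocyte genes (median 0.95) higher. After adjustment in edgeR 3 of 8 midbrain dopamine genes passed between CVST+Ligation and CVST. Between 4-PBA and CVST 5 of 8 midbrain dopamine, 2 of 6 tested hypothalamic and 1 of 8 thalamic genes passed, and no other region or cell list gave any. In the same comparison 7 of 8 thalamic (median 2.17) and 4 of 8 choroid plexus genes (median 1.52) were higher and 2 of 8 striatal genes lower (median -1.27). Between CVST+Ligation and CVST 3 of 7 astrocyte (median 0.53) and 2 of 7 blood genes (median 0.58) were higher, and 3 of 7 microglia genes lower (median -0.31). The part of these lists in the immediate early values was not tested. The summed level of the immediate early genes was 903.2 to 2309 CPM in CVST and 529 to 876.8 in CVST+Ligation, so the groups did not overlap. The summed level of the 10 heat shock genes, mostly Hspa8, was 6230 to 8606 CPM in CVST and 6704 to 8262 in CVST+Ligation and overlapped.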

How the data were processed

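Total RNA of 9 mouse brains was sequenced as 150-base read pairs. According to the methods and the submitters' processing notes, the authors used fastp, HISAT2, StringTie and RSEM on mm10 (GRCm38). The read counter and its handling of reads matching several genes are not given in the sources used here. The authors deposited raw counts per gene symbol and normalized values that the methods call TPM. The deposited values are FPKM, since each equals the count divided by the library total and by 1 length per gene (17446 whole-number lengths), with column sums of 780195 to 879696.

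Groups came from the sample titles. Counts were scaled by TMM, filtered by filterByExpr and fitted in edgeR 4.0.16 (R 4.3.3) with the quasi-likelihood test, 1 model of 3 groups, and p-values were adjusted over 14746 genes. No label ties libraries to cultures or batches, and p-values measure the spread between these libraries, 1 mouse each by the methods' numbers. Library totals of 18100739 to 25091498 set a floor of 3 counts at 0.120 to 0.166 CPM, for counting error only. Libraries of a group correlated at r = 0.954 to 0.987, and none repeated another (chi-square per degree of freedom at least 22.3).

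The 10 genes and all lists were chosen with earlier results of these data known. Text names all 10, up to 3 network genes per comparison by smallest p among those past 0.05, and for likeness Hspa1b. Alternatives used limma 3.58.1, DESeq2 1.42.0, other scalings and filters, a replicate block, summed Hspa1a and Hspa1b, and each library left out. Scripts were tested on simulated data. Start-site windows are from RefSeq GRCm38.p6.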

Additional observations from a re-analysis of the deposited data

How the results depend on the processing

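The count of heat shock genes at an unadjusted p below 0.05 between 4-PBA and CVST+Ligation was 0 in all 19 alternatives. Between CVST+Ligation and CVST it was 1 in place of 0 with total counts alone, with limma on log2(FPKM + 1) and with limma on log2(FPKM + 0.1). Between 4-PBA and CVST it was 1 in place of 0 with total counts alone, with DESeq2, and with limma on log2(FPKM + 1) and on log2(FPKM + 0.1). In each of these the gene was Hspd1. Leaving out 1 library at a time gave 0 to 1 between CVST+Ligation and CVST (Hspe1 without CVST replicate 3, Hspd1 without CVST+Ligation replicate 2) and 0 to 2 between 4-PBA and CVST (Hspe1 and Hspd1 without CVST replicate 3, Bag3 without 4-PBA replicate 1). Of 570 alternative values of the 10 genes, 12 had an unadjusted p below 0.05 and 47 had the other sign, none of the latter past the threshold. The log2 fold change of Hspd1 ranged from 0.17 to 0.26 (p 0.0167 to 0.220) between CVST+Ligation and CVST and from 0.19 to 0.29 (p 0.00886 to 0.1855) between 4-PBA and CVST. The count of all genes at an unadjusted p below 0.05 between 4-PBA and CVST+Ligation ran from 256 without 4-PBA replicate 2 to 1497 without CVST+Ligation replicate 2, against 476. After adjustment DESeq2 called 260, 22 and 834 genes in the 3 comparisons where edgeR called 3, 0 and 18. In edgeR the adjusted count between 4-PBA and CVST was 234 with only the 2 groups compared, 112 with all genes of at least 1 count, and 2 to 541 with 1 library left out. The causes were not tested.

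Replicates of different groups share only a number: same-numbered libraries correlated in their deviations at r from -0.06 to 0.335. With the number as a replicate block 0 of the 10 genes passed in each comparison and 1765, 521 and 2644 of all genes did, and Hspd1 gave log2 fold changes of 0.21, 0.003 and 0.21 with unadjusted edgeR p-values of 0.0567, 0.975 and 0.0540. With 3 libraries a group, differences within the printed intervals could not be told apart from no change.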
